A study of Mus musculus with 8 samples.

Results

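The genes described here are 35 genes of striated skeletal muscle, among them the sarcomere proteins, the calcium-handling proteins and the energy enzymes of muscle fibers. In mouse skin such genes are usually traced to the panniculus carnosus, a thin sheet of skeletal muscle under the dermis and the subcutaneous fat. The genes were chosen by name, with earlier results of these data known, and were found through the gene symbols of the probe annotation. They had 50 probes on the array, and 34 of these carried an intensity on all 8 arrays. In this way 29 of the 35 genes were measured, out of 9987 measured genes and 13853 measured probes in all. Ldb3, Mybpc1, Myot, Neb, Tnni2 and Trdn were blank on every array and could not be examined. None of the genes tells the panniculus carnosus from other skeletal muscle, and the depth of the excised skin on these arrays is not given, so they are called skeletal muscle genes below.

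A muscle fiber shortens when the myosin heads of the thick filament pull on the actin of the thin filament, inside a repeating unit, the sarcomere, that is anchored at the Z-disc and held together by titin. Calcium released from the sarcoplasmic reticulum binds troponin, which moves tropomyosin aside and opens actin to myosin, and a pump returns the calcium. Creatine kinase, glycogen breakdown, glycolysis and myoglobin supply the energy, and the myosin heavy chain that a fiber makes sets how fast it shortens. The panniculus carnosus of mice is known as a mostly fast-twitch muscle.

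Young female C57BL/6JNarl mice received 100 μL of acetone that contained shikonin, a naphthoquinone of Lithospermum roots, at 10 μg/μL on the skin of the abdomen, or the same volume of acetone alone as the solvent control. Total RNA of the excised skin was measured 4 h or 24 h later on the Mouse OneArray, with 2 arrays for each of the 4 groups: shikonin 4 h, acetone 4 h, shikonin 24 h and acetone 24 h. All animals thus received acetone, and no untreated skin was on these arrays. Whole skin was extracted, so a lower value of a muscle gene can come from a smaller share of muscle fibers in the sample. That share is smaller with fewer fibers or with more of other cells. A lower value can also come from less of that RNA in each fiber, and these cannot be told apart. The methods describe duplicate samples on separate chips and a selection of genes over 2 independent experiments, but neither they nor the labels say which animals the RNA of each array came from. The p-values measure the spread between these samples, and how much of it is between animals is not known. The values are normalized intensities of a probe, with a median of 1129 over all arrays. Replicate arrays correlated across probes with Pearson's r between 0.986 and 0.992.

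On the abdominal skin arrays the skeletal muscle genes were bright. By the mean log2 intensity over the 8 arrays, 9 of the 29 genes were in the brightest 5% of the 9987 measured genes, 23 were in the brightest 25%, and 2, Myh8 and Cacna1s, were below the median. The brightest was Mylpf, the regulatory light chain of fast myosin, at rank 45, then Tnnc2, the calcium-binding troponin of fast fibers, at rank 156, and Acta1, skeletal actin, at rank 190. Intensities depend on each probe, so these ranks describe signal and not the amount of RNA. Together the 29 genes summed to 253170 and 262528 intensity units on the shikonin 4 h arrays, against 431727 and 440315 on the acetone 4 h arrays. At 24 h the sums were 243977 and 260866 with shikonin, against 432126 and 420906 with acetone. As a share of the intensity of all measured probes this came to 0.482% and 0.499% (shikonin 4 h), 0.821% and 0.837% (acetone 4 h), 0.464% and 0.496% (shikonin 24 h), and 0.822% and 0.801% (acetone 24 h). The shikonin and acetone arrays did not overlap in this share at either time.

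**Figure D1:**
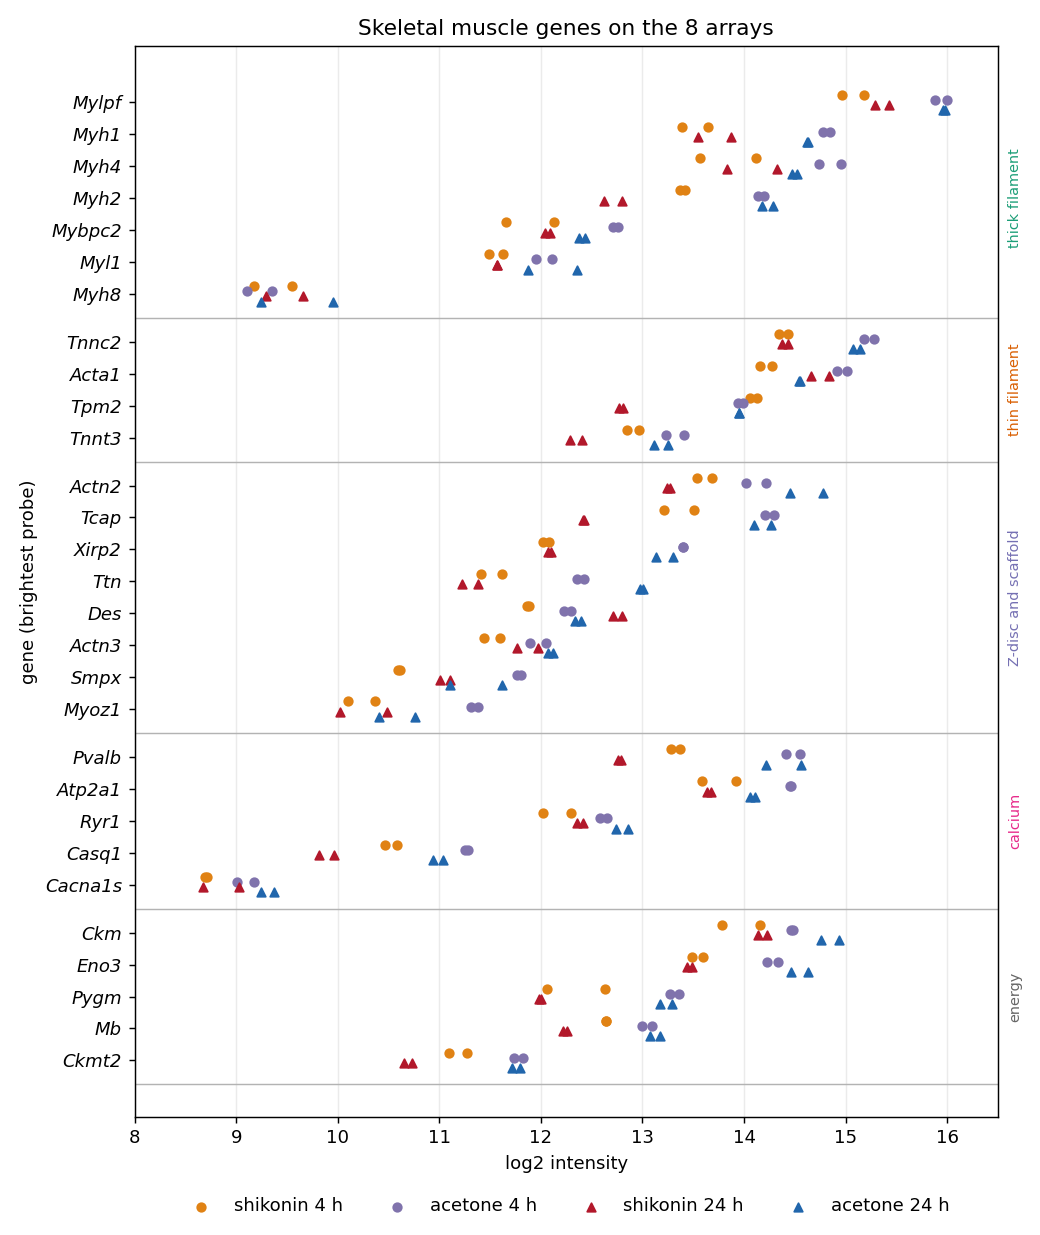
Log2 intensity of the 29 measured skeletal muscle genes on each of the 8 arrays, by the role of the gene, with 1 point for each array. Circles are 4 h arrays and triangles 24 h arrays. For most genes both shikonin arrays of a time lie to the left of both acetone arrays, with Tpm2 at 4 h and Acta1 and Des at 24 h as the exceptions on the other side.

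Skeletal muscle genes were lower in shikonin-treated than in acetone-treated skin at both times. At 4 h, 26 of the 29 genes were lower and 0 were higher by limma with an adjusted p under 0.05, while 25.4% of all measured probes were lower and 21.2% were higher. At 24 h, 21 of the 29 were lower and 1, Des, was higher, while 32.3% of all probes were lower and 29.0% were higher. The 29 genes had median log2 fold changes of -0.74 and -0.71 at these times, a median decrease of 1.67-fold and 1.63-fold. Over all measured probes the median was -0.06 at 4 h and -0.02 at 24 h. Without regard to a test, both shikonin arrays were below both acetone arrays in 27 of the 29 genes at 4 h, where 40.5% of all probes were so ordered, and in 24 of the 29 at 24 h, where 41.6% were. The genes differed more from each other at 24 h, with a standard deviation of their log2 fold changes of 0.55, than at 4 h, when it was 0.36. The same spread over all probes is not given here, so whether this is particular to the 29 genes is not known.

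Thick filament genes fell at 4 h in 6 of 7 cases and at 24 h in 4 of 7, with median log2 fold changes of -0.84 and -0.55. Myh2, the heavy chain of fast oxidative fibers, had intensities of 10615 and 10983 in shikonin-treated skin at 4 h, against 18789 and 18036 in acetone-treated skin. At 24 h it had 6282 and 7146 with shikonin, against 18562 and 19973 with acetone. The groups did not overlap, and Myh2 fell by 0.77 on the log2 scale at 4 h (SE 0.10, limma adjusted p = 0.000203) and by 1.52 at 24 h (SE 0.10, adjusted p = 1.05e-06), which is 2.87-fold lower. Myh1, the heavy chain of fast intermediate fibers, had 12833 and 10723 with shikonin at 4 h, against 28089 and 29373 with acetone, and 11979 and 14982 with shikonin at 24 h, against 25241 and 25429 with acetone. It fell 2.45-fold at 4 h (log2 fold change -1.29, SE 0.12) and 1.89-fold at 24 h (log2 fold change -0.92, SE 0.12), in the limma fit with adjusted p-values of 4.06e-05 and 0.000165. A second, much dimmer probe of Myh1 went the other way at 24 h, with 469 and 415 with shikonin, against 337 and 240 with acetone (log2 fold change 0.63, SE 0.20, limma adjusted p = 0.0219), so the probes of Myh1 disagree, and with the mean of both probes the 24 h call is lost (log2 fold change -0.14, adjusted p = 0.358).

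The other thick filament genes held the fastest heavy chain and the light chains. Myh4, the heavy chain of the fastest fibers, fell 2.01-fold at 4 h (log2 fold change -1.01, SE 0.20) but did not pass at 24 h (-0.42, SE 0.20, limma adjusted p = 0.0945), when its shikonin arrays read 14555 and 20580, against 23550 and 22697 with acetone. Without shikonin 24 h replicate 2 it passed at 24 h (log2 fold change -0.67, limma adjusted p = 0.04). Mylpf had 37197 and 31949 with shikonin at 4 h, against 65483 and 60466 with acetone, and 40096 and 43917 with shikonin at 24 h, against 63883 and 64415 with acetone. It fell by 0.87 at 4 h and by 0.61 at 24 h on the log2 scale (SE 0.09 each). One of its acetone 4 h arrays was saturated (65000 or above), so its decrease at 4 h is at least 1.83-fold. The essential light chain Myl1 fell by 0.47 at 4 h and by 0.55 at 24 h (SE 0.16 each), and its call was lost at 4 h without any 1 of the 4 h arrays or of the shikonin 24 h arrays (-0.55 to -0.39), and at 24 h without acetone 24 h replicate 2 (-0.31) or either shikonin 24 h array (-0.55 and -0.54). Mybpc2, the fast myosin-binding protein C, fell by 0.84 at 4 h, and its 24 h value of -0.34 did not pass (limma adjusted p = 0.0705). It passed on leaving out either shikonin 4 h array (adjusted p = 0.00841 and 0.00879), with array weights (0.0432) and with the 24 h groups fitted alone (0.0245). The heavy chains are alike in sequence, and cross-hybridization between their probes was not tested. Myh8, the heavy chain of perinatal muscle, was dim (551 to 993 on the 8 arrays) and did not pass at either time by its brighter probe, while its second probe was lower at both, with 461 and 319 with shikonin at 4 h, against 733 and 806 with acetone, and 591 and 464 with shikonin at 24 h, against 977 and 718 with acetone.

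In the thin filament, 3 of 4 genes fell at 4 h and 3 of 4 at 24 h, but not the same 3. Acta1 had 18316 and 19843 with shikonin at 4 h, against 30925 and 32978 with acetone, a decrease of 1.68-fold (log2 fold change -0.74, SE 0.09, limma adjusted p = 0.000156). At 24 h both shikonin arrays, at 25841 and 29193, were above both acetone arrays, at 23776 and 23998, and the difference did not pass (log2 fold change 0.20, SE 0.09, limma adjusted p = 0.0769). Without shikonin 24 h replicate 1, Acta1 passed as higher at 24 h (log2 fold change 0.29, limma adjusted p = 0.0405). Tpm2, the beta chain of tropomyosin, showed the opposite course. Its shikonin arrays at 4 h read 17098 and 17836, slightly above the acetone arrays at 15714 and 16312 (log2 fold change 0.13, SE 0.08, not passed), while at 24 h they read 7173 and 6959, against 15792 and 15817 with acetone, a decrease of 2.24-fold (log2 fold change -1.16, SE 0.08, limma adjusted p = 2.16e-06). Tpm2 is also made by smooth muscle and other cells, whose markers are given below.

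The troponins of fast fibers were lower at both times. Tnnc2 had 20828 and 22166 with shikonin at 4 h, against 37197 and 39648 with acetone, and 21230 and 22045 with shikonin at 24 h, against 36192 and 34455 with acetone. It fell by 0.84 and by 0.71 on the log2 scale (SE 0.08 each, limma adjusted p = 3.52e-05 and 4.55e-05). Tnnt3, the tropomyosin-binding troponin, had 7356 and 7985 with shikonin at 4 h, against 10855 and 9640 with acetone, and 4996 and 5416 with shikonin at 24 h, against 8866 and 9747 with acetone. It fell by 0.42 at 4 h and by 0.84 at 24 h (SE 0.11 each), and the 4 h call was lost without acetone 4 h replicate 1 (-0.33) or without shikonin 4 h replicate 1 (-0.36).

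At the Z-disc and the scaffold around it, 8 of 8 genes fell at 4 h, and at 24 h 4 fell, 1 rose and 3 did not pass. Tcap, which caps titin at the Z-disc, had 9461 and 11645 with shikonin at 4 h, against 20115 and 18882 with acetone, and 5510 and 5462 with shikonin at 24 h, against 17562 and 19656 with acetone. The decrease was 1.86-fold at 4 h and 3.39-fold at 24 h (log2 fold changes -0.89 and -1.76, SE 0.12 each, limma adjusted p = 0.000257 and 1.36e-06), and the value at 24 h was the lowest of the 29 genes. Ttn, titin itself, had 2722 and 3141 with shikonin at 4 h, against 5243 and 5495 with acetone, and 2383 and 2675 with shikonin at 24 h, against 8223 and 8051 with acetone. Its decrease was 1.84-fold at 4 h and 3.22-fold at 24 h, and a dimmer second probe of Ttn passed as lower at both times as well (log2 fold changes -0.44 and -0.75). Actn2, an alpha-actinin that ties actin to the Z-disc, fell by 0.51 at 4 h and by 1.36 at 24 h (SE 0.12 each), and its 4 h call was lost without acetone 4 h replicate 2 (-0.41) or without shikonin 4 h replicate 1 (-0.43).

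Xirp2, an actin-binding protein of the Z-disc region and the myotendinous junction, had 4332 and 4165 with shikonin at 4 h, against 10787 and 10799 with acetone, and 4374 and 4314 with shikonin at 24 h, against 8953 and 10092 with acetone. Its decrease of 2.54-fold at 4 h (log2 fold change -1.35, SE 0.10, limma adjusted p = 8.56e-06) was the largest of the 29 genes at that time, and at 24 h it was 2.19-fold. Myoz1, a Z-disc protein of fast fibers that binds calcineurin, and Smpx, a small stretch-responsive muscle protein, fell 2.16-fold and 2.27-fold at 4 h and did not pass at 24 h (log2 fold changes -0.33 and -0.30, limma adjusted p = 0.168 and 0.14). The acetone arrays of Smpx at 24 h read 2201 and 3146, and without the first of them the 24 h decrease passed (log2 fold change -0.56). Actn3, the alpha-actinin of fast fibers, fell by 0.46 at 4 h and had -0.22 at 24 h (limma adjusted p = 0.147), and its 4 h call was lost without acetone 4 h replicate 2 or without shikonin 4 h replicate 1 (-0.38 in each case). Des, the intermediate filament desmin that links neighboring Z-discs, had 3770 and 3736 with shikonin at 4 h, against 5024 and 4808 with acetone. At 24 h it had 7101 and 6700 with shikonin, against 5174 and 5386 with acetone. Des thus fell by 0.39 at 4 h (SE 0.10, limma adjusted p = 0.0105) and rose by 0.39 at 24 h (SE 0.10, adjusted p = 0.00763), the 1 gene of the 29 that passed in opposite directions. Each call was lost on leaving out 1 array: without acetone 4 h replicate 1 the 4 h value was -0.36 (adjusted p = 0.079), and without shikonin 24 h replicate 1 the 24 h value was 0.34 (adjusted p = 0.0513).

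Of the calcium genes, 4 of 5 fell at 4 h and 5 of 5 at 24 h. Pvalb, parvalbumin, a soluble calcium buffer of the fastest fibers, had 9961 and 10578 with shikonin at 4 h, against 21844 and 23998 with acetone, and 6923 and 7054 with shikonin at 24 h, against 24197 and 18995 with acetone. It fell 2.23-fold at 4 h and 3.07-fold at 24 h (log2 fold changes -1.16 and -1.62, SE 0.12 each, limma adjusted p = 6.73e-05 and 3.01e-06). Casq1, calsequestrin, which stores calcium in the sarcoplasmic reticulum, had 1410 and 1539 with shikonin at 4 h, against 2493 and 2436 with acetone, and 995 and 898 with shikonin at 24 h, against 2097 and 1964 with acetone. It fell by 0.74 at 4 h and by 1.10 at 24 h (SE 0.13 each). A second probe of Casq1, near the lowest intensities of the array, did not pass at either time, and the mean of both probes lost the 4 h call (log2 fold change -0.29, limma adjusted p = 0.127).

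The other calcium genes are the pump and the channels that release calcium, and the difference between the effects of the times did not pass in any of these 3. Atp2a1, the calcium pump of fast fibers, fell 1.63-fold at 4 h and 1.35-fold at 24 h (log2 fold changes -0.71 and -0.43, SE 0.11 each). Ryr1, the release channel, fell by 0.45 at 4 h and by 0.42 at 24 h (SE 0.12 each), but its second probe was lower at 4 h alone (log2 fold changes -0.45 at 4 h and 0.23, not passed, at 24 h), and the mean of the probes did not pass at 24 h (-0.09). The call of its brighter probe was lost at 4 h without acetone 4 h replicate 1 (-0.42) or replicate 2 (-0.48), and at 24 h without acetone 24 h replicate 1 (-0.36) or shikonin 24 h replicate 2 (-0.38). Cacna1s, the voltage sensor that opens Ryr1, was dim, at 408 to 661 on the 8 arrays, with values of -0.38 at 4 h (not passed, limma adjusted p = 0.0846) and -0.46 at 24 h (adjusted p = 0.0364), and the 24 h call was lost without any 1 of the acetone arrays of either time or shikonin 24 h replicate 2 (-0.52 to -0.28).

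All 5 energy genes fell at both times, and their median log2 fold change was -0.59 (4 h) and -1.07 (24 h). Pygm, the glycogen phosphorylase of muscle, had 4275 and 6362 with shikonin at 4 h, against 9852 and 10538 with acetone, and 4090 and 4031 with shikonin at 24 h, against 10038 and 9218 with acetone. It fell 1.95-fold at 4 h and 2.37-fold at 24 h (log2 fold changes -0.97 and -1.24, SE 0.17 each, limma adjusted p = 0.00134 and 0.000157). Eno3, the muscle enolase of glycolysis, had 11510 and 12368 with shikonin at 4 h, against 19157 and 20696 with acetone, and 11112 and 11472 with shikonin at 24 h, against 25315 and 22596 with acetone. It fell by 0.74 at 4 h and by 1.08 at 24 h (SE 0.09 each, limma adjusted p = 0.000221 and 8.44e-06). Ckmt2, the mitochondrial creatine kinase of muscle, fell by 0.59 at 4 h and by 1.07 at 24 h. Mb, myoglobin, which holds oxygen, fell by 0.41 at 4 h and by 0.89 at 24 h, and Ckm, the cytosolic creatine kinase, fell by 0.50 and by 0.66. The 4 h call of Ckm was lost without acetone 4 h replicate 2 (-0.49, limma adjusted p = 0.0551) and that of Mb without acetone 4 h replicate 1 (-0.36, adjusted p = 0.0661).

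**Figure D2:**
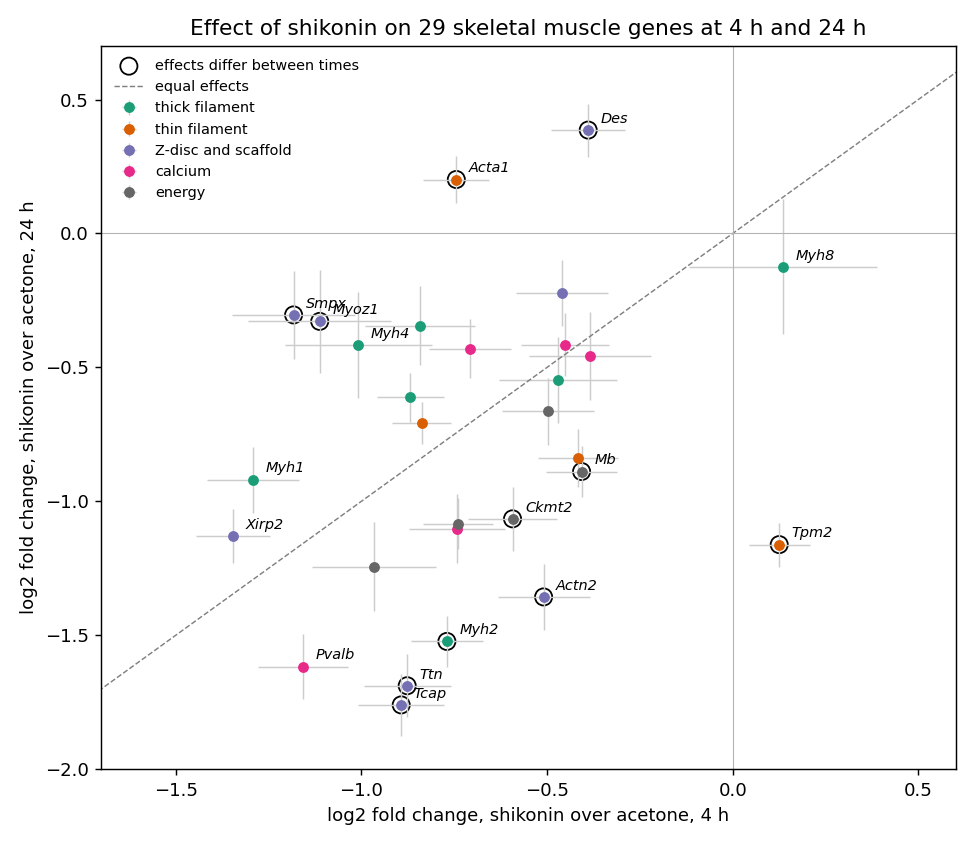
Log2 fold change of shikonin over acetone at 4 h (horizontal) and at 24 h (vertical) for each of the 29 measured skeletal muscle genes, colored by role, with standard errors of the limma fit as gray bars. Black rings mark the 11 genes whose 2 effects differed, and the dashed line marks equal effects. Tcap, Ttn, Myh2, Actn2 and Tpm2 lie below the line and Des and Acta1 far above it.

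Whether the effect of shikonin differed between 24 h and 4 h was tested with limma as the difference of the 2 effects. This difference passed in 11 of the 29 genes, 7 with a lower and 4 with a higher effect at 24 h, against 22.2% and 21.1% of all measured probes. Tcap (difference -0.87, SE 0.16), Ttn (-0.81, SE 0.17), Actn2 (-0.85, SE 0.18), Myh2 (-0.75, SE 0.14), Mb (-0.48) and Ckmt2 (-0.47) fell at both times and further at 24 h. Tpm2 had the largest difference of the 29 genes (-1.29, SE 0.12, limma adjusted p = 3.8e-05). The differences of Acta1 (0.95, SE 0.13), Smpx (0.88, SE 0.23), Myoz1 (0.78, SE 0.27) and Des (0.78, SE 0.14) went the other way. In 13 further genes, among them Myh1, Mylpf, Tnnc2, Pvalb, Eno3 and Xirp2, both effects passed as lower and the difference did not pass.

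The solvent arrays of the 2 times were compared to see how far the controls themselves moved. Between acetone 24 h and acetone 4 h, 3 of the 29 genes were higher (Ttn, Actn2 and Ckm) and 3 were lower (Myoz1, Acta1 and Atp2a1), while 15.5% of all probes were higher and 14.2% lower, and the median log2 difference of the 29 genes was -0.02. The changes of Ttn (0.60), Actn2 (0.49), Acta1 (-0.42) and Myoz1 (-0.76) run opposite to the difference of the shikonin effects in these same genes, and both comparisons share the acetone arrays. When each time was set against the other time's acetone arrays, 25 of the 29 genes were lower at 4 h, and 22 were lower and 1 higher at 24 h. The share of all probes called in these swapped comparisons is not given here, so these counts have no background beside them. With acetone 4 h as the control, Myoz1 at 24 h passed as lower (log2 fold change -1.09, limma adjusted p = 0.0011), as did Smpx (-0.73, adjusted p = 0.00448), Myh4 (-0.77, adjusted p = 0.00856) and Mybpc2 (-0.67, adjusted p = 0.00396). The 24 h calls of Ckm (-0.29, adjusted p = 0.0719), Ryr1 (-0.23, adjusted p = 0.122) and Cacna1s (-0.24, adjusted p = 0.239) were lost. With acetone 24 h as the control at 4 h, the calls of Myoz1 (-0.35 in place of -1.11, adjusted p = 0.151) and Tnnt3 (-0.28, adjusted p = 0.0551) were lost, and Cacna1s passed as lower (-0.60, adjusted p = 0.0122). At 24 h Acta1 had -0.22 in place of 0.20 and did not pass (adjusted p = 0.062), and Des stayed higher (0.49, adjusted p = 0.00237).

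**Figure D3:**
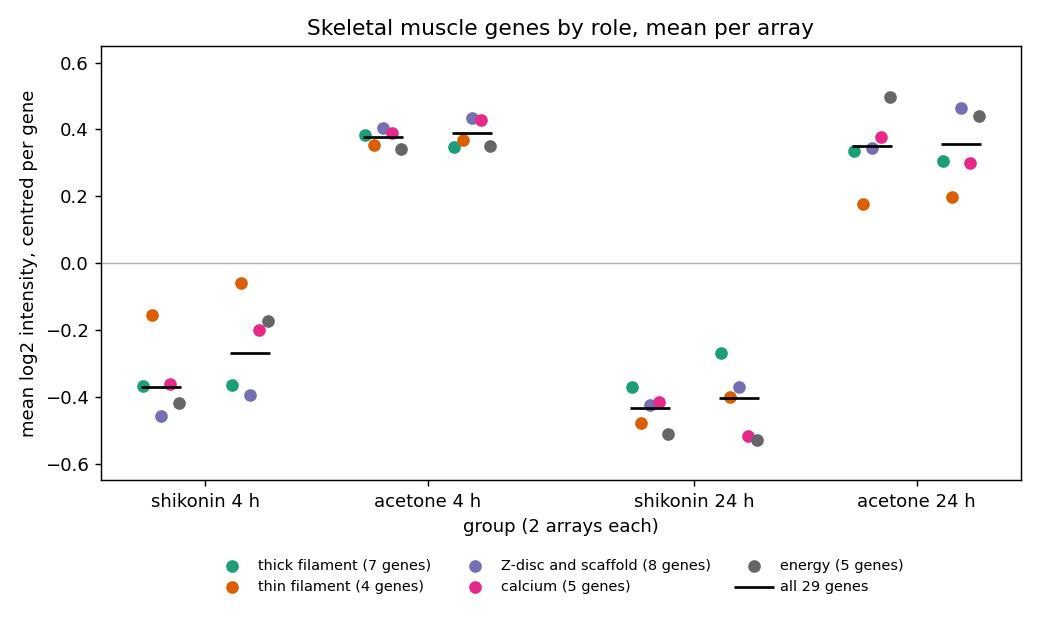
Mean log2 intensity of the skeletal muscle genes on each array after centring each gene on its mean over the 8 arrays, by role (points) and over all 29 genes (bars). The 4 shikonin arrays lie at -0.27 to -0.43 over all 29 genes and the 4 acetone arrays at 0.35 to 0.39.

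Averaged over the 29 genes after centring each on its own mean, the shikonin 4 h arrays stood at -0.37 and -0.27 on the log2 scale, against 0.38 and 0.39 for acetone 4 h, and the shikonin 24 h arrays stood at -0.43 and -0.40, against 0.35 and 0.36 for acetone 24 h. The widest gap between arrays of 1 group was in shikonin 4 h, where the energy genes stood at -0.42 on the first array and -0.17 on the second. In the plot of means by role, the thin filament genes of the shikonin 4 h arrays stood highest (-0.16 and -0.06), and Tpm2 is 1 of these 4 genes.

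The heavy chain genes of adult fast muscle lie next to each other on mouse chromosome 11, in the order Myh2, Myh1 and Myh4. They are shown here with Acta1 because the values at 24 h ranged widely. These were -1.52 (Myh2), -0.92 (Myh1, whose dimmer probe went the other way), -0.42 (Myh4, not passed) and 0.20 (Acta1, not passed). The 250 bases before the annotated start of each gene are from RefSeq (GRCm38.p6), read 5′ to 3′ on the strand of the gene, at chr11:67170777-67171026 (plus strand, Myh2), chr11:67199852-67200101 (plus strand, Myh1), chr11:67237562-67237811 (plus strand, Myh4) and chr8:123894776-123895025 (minus strand, Acta1). Capitals mark matches, on either strand, to the E-box CANNTG that myogenic factors such as MyoD bind, to the MEF2 site, to the CArG box bound by serum response factor, and to the TATA box TATAAA. A MEF2 site and a TATA box overlap in Myh1 and in Myh4.
Myh2: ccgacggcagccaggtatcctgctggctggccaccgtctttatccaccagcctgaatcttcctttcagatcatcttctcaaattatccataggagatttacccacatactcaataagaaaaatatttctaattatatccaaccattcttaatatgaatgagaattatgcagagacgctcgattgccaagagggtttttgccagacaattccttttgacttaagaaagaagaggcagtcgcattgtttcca
Myh1: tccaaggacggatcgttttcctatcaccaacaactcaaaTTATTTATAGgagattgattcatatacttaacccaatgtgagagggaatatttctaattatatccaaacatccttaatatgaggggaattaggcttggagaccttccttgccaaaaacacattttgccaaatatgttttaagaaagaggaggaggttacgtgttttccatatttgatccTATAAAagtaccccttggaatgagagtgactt
Myh4: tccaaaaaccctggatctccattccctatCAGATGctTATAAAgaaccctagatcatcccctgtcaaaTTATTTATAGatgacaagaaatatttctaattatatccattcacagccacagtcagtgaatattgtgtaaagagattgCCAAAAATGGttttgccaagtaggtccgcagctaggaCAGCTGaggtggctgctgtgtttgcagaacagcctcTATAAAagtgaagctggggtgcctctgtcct
Acta1: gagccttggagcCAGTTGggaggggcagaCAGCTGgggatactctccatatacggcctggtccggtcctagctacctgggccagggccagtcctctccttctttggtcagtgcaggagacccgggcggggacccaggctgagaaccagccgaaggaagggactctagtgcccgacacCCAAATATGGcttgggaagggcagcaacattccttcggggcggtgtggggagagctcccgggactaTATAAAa
The window of Myh2 held none of these motifs, that of Myh1 held a MEF2 site and 2 TATA boxes, that of Myh4 held 2 E-boxes, a MEF2 site, a CArG box and 3 TATA boxes, and that of Acta1 held 2 E-boxes, a CArG box and a TATA box. Of the 29 measured genes, 25 had 28 such windows. An E-box was in 23 of the 28 (82.1%, against 66.2% of all 32851 windows), a MEF2 site in 6 (21.4%, against 2.92%), a CArG box in 2 (7.14%, against 1.47%) and a TATA box in 5 (17.9%, against 12.4%). Some genes have more than 1 window, and windows of Mb overlap, so some sites are counted more than once. The MEF2 sites of Myh1, Myh4 and Myh8 have the same letters. These are matches of letters in a short window, and binding was not measured.

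Other genes of skeletal muscle were taken from lists, which were also chosen with earlier results of these data known. Whole skin was extracted, so which cells made these RNAs was not measured. The counts of each list are read against all probes. Of these probes, 25.4% were lower and 21.2% higher at 4 h, and 32.3% lower and 29.0% higher at 24 h. Several lists lie near these shares, and no list was tested against another. Of 22 other sarcomere genes, 10 were lower and 3 higher at 4 h, and 13 lower and 3 higher at 24 h, with median log2 fold changes of -0.46 and -0.44. Tmod1, which caps the thin filament, and Fhl1, a LIM protein of muscle, fell by 1.81 and by 1.33 at 24 h, while Klhl40, which stabilizes thin filament proteins, and Pdlim5, a Z-disc protein, rose by 1.90 and 1.79. Of 11 other calcium and membrane excitation genes, 5 were lower and 2 higher at 4 h, and 4 lower and 2 higher at 24 h. Tmem38a, a potassium channel of the sarcoplasmic reticulum, fell by 1.69 at 24 h, and Cacng1, the gamma subunit of the channel that holds Cacna1s, fell by 0.59 at 4 h and rose by 1.23 at 24 h. Of 20 other muscle energy genes, 2 were higher and 9 lower in the 4 h comparison, and 7 higher and 9 lower in the 24 h one. Pfkm, the phosphofructokinase of muscle, fell at 24 h to 0.354 of its acetone level and Cs, citrate synthase, to 0.411, while Pkm, pyruvate kinase, and Pdk4, which restrains pyruvate oxidation, rose to 3.61 and 2.76 times theirs. In the dystrophin complex, which ties the fiber to its surroundings, 3 of 9 genes were lower and 2 higher at 4 h, and 5 were lower and 2 higher at 24 h, with medians of -0.12 and -0.46. Dmd, dystrophin, had -0.20 at 4 h (not passed) and fell by 2.35 at 24 h, and Lama2, a laminin chain, had 0.11 (not passed) and fell by 3.24. Itga7, a laminin-binding integrin, rose by 1.11 at 4 h and by 1.31 at 24 h, and Sgcb, a sarcoglycan, had -0.12 at 4 h (not passed) and rose by 0.84 at 24 h.

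Lists of slow fibers and of muscle regulation were counted in the same way. Myh7, the slow heavy chain, was blank on all arrays. Of 7 measured slow-twitch isoforms, 0 were lower and 1 was higher at 4 h, and 2 were lower and 1 higher at 24 h. The higher gene was Ankrd2, an ankyrin-repeat protein of stretched and slow muscle, with 4372 and 4345 with shikonin at 24 h, against 953 and 804 with acetone (log2 fold change 2.32, SE 0.17). Of 10 myogenic and regeneration genes, 2 were higher and 2 lower with shikonin at 4 h, and at 24 h 3 were higher and 3 lower. Mustn1, a small protein of regenerating muscle and bone, rose by 1.92 at 24 h, and Mef2a, a factor that binds the MEF2 site, was at least 3.96-fold higher, with both acetone arrays under the floor of 203.4. Myod1, Myog, Myf5, Pax7 and Myh3, which mark muscle precursors and new fibers, were blank on all arrays. Of 8 neuromuscular junction genes, 2 were lower and 1 higher at each time, and Chrna1, an acetylcholine receptor subunit, fell by 1.58 at 4 h and had 0.44 at 24 h (not passed). Of 17 atrophy and muscle stress genes, 5 were higher and 3 lower with shikonin at 4 h, and at 24 h 7 were higher and 1 was lower, led at 24 h by Gadd45a (2.53) and Sqstm1 (1.36), which other skin cells also make.

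**Figure D4:**
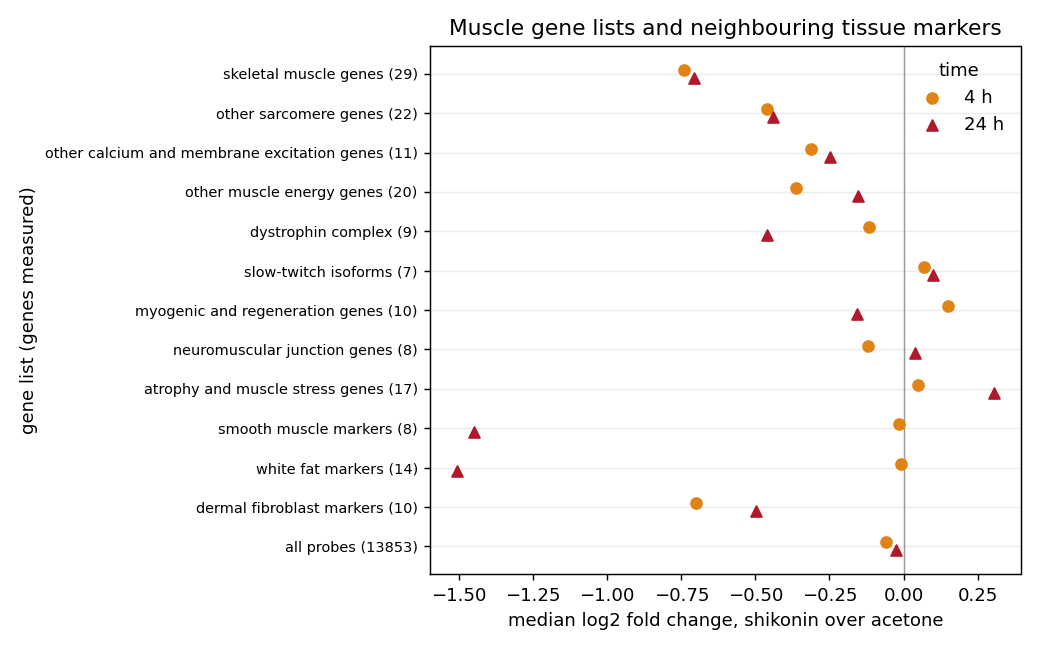
Median log2 fold change of shikonin over acetone at 4 h (circles) and 24 h (triangles) over the measured genes of each list, with the number of genes in parentheses. The 29 skeletal muscle genes lie at -0.74 and -0.71, and all measured probes lie near 0.

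Markers of other tissues and cells were counted in the same comparisons, and their part in the results above was not tested. Of 14 white fat markers, 3 were lower and 3 higher at 4 h, and 13 were lower and 0 higher at 24 h (medians -0.01 and -1.51). Their summed intensity was 217283 to 238079 with shikonin at 4 h, against 238949 to 243161 with acetone, and 120784 to 122442 with shikonin at 24 h, against 253413 to 289706 with acetone. The 29 skeletal muscle genes had a median of -0.74 at 4 h. Of 8 smooth muscle markers, 3 were lower and 2 higher at 4 h and 7 were lower at 24 h (medians -0.01 and -1.45), with sums of 31886 to 36178 with shikonin at 4 h, against 32593 to 32598 with acetone, and of 21365 to 22659 with shikonin at 24 h, against 53678 to 56498 with acetone. Beside these, Tpm2 had 0.13 at 4 h and -1.16 at 24 h, Des -0.39 and 0.39, Tnnc2 -0.84 and -0.71, and Tnnt3 -0.42 and -0.84. Which cells made the RNA of these genes was not measured. Dermal fibroblast markers were lower in 7 of 10 genes at 4 h and in 5 of 10 at 24 h, with 1 higher at each time (medians -0.70 and -0.50). Neutrophil markers were higher in 8 of 9 genes at 4 h and in 9 of 9 at 24 h. Their sums at 4 h were 230522 to 240667 with shikonin, against 71424 to 79818 with acetone. At 24 h the sums were 239009 to 239151 with shikonin, against 11441 to 12289 with acetone. From acetone 4 h to acetone 24 h, 7 of the 9 were lower and 0 higher (median -1.935), against 14.2% and 15.5% of all probes. Epidermal markers were lower in 7 of 10 genes at 4 h and in 8 of 10 at 24 h, with 1 higher at each time, and hair follicle markers were higher in 9 of 9 at 4 h, and at 24 h 5 of 9 were lower and 2 higher (medians 4.17 and -0.73). Peripheral nerve markers were lower in 3 of 4 genes at 4 h and in 4 of 4 at 24 h, and of 7 endothelial markers 4 were lower and 2 higher at 4 h, and 1 was lower and 5 higher at 24 h (medians -0.60 and 0.86). Of the brown fat markers, 3 were measured and 1 was lower and 0 higher at 4 h, and 2 were lower and 1 higher at 24 h, while Ucp1 was blank. Of 10 cardiac muscle markers, Myh6, Tnnt2, Tnni3, Nppa, Mybpc3, Ryr2 and Myl7 were blank. The other 3 were Nppb, Myl4 and Ankrd1, of which 1 is also in another list. With shikonin, 2 of them were called higher and 0 lower at 4 h (median 2.02), and all 3 higher at 24 h (median 0.85). With the rest of the list blank, these 3 cannot stand for cardiac muscle.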

How the data were processed

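The deposited table of the authors holds a linear intensity for each probe and array, from Cy5-labeled antisense RNA on the Mouse OneArray read with GenePix. For the background correction, the normalization and the filter that blanked 16069 of the 29922 probes, the sources used here give no method. The arrays share their distribution (the 95th percentile is 16228 on each), so no further normalization was applied. The 13853 probes with values on all arrays were used, with intensities under 203.4, the 5th percentile, raised to that floor before log2. The probe with the highest mean log2 value stood for its gene. Saturated means 65000 or above. Group means of the 4 groups were fitted to all 8 arrays with limma (version 3.58.1, R 4.3.3), by lmFit and eBayes, with an intensity trend and 4 residual degrees of freedom, with Benjamini-Hochberg adjustment over all 13853 probes and a threshold of 0.05, and the calculation was tested on simulated data. The study's own criterion, a change of 2-fold in both pairs of arrays, was counted as an alternative. The skeletal muscle genes and the other gene lists were chosen with earlier results of these data known, so no list was tested as a set. Array values are given for the genes with the largest effects of each role, the saturated gene and those that ran against the median at 24 h. Genes named from other lists are at most the 2 highest and 2 lowest that passed, and blank markers. Replicate numbers did not pair the arrays (correlations of deviations -0.21 to 0.21). Only 2 arrays per group limit the precision. Python 3.11.15 and matplotlib 3.10.9 drew the figures. The microRNA arrays were not used here.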

Additional observations from a re-analysis of the deposited data

Results flagged for a closer look

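In 11 of the 29 skeletal muscle genes the shikonin effects of the 2 times were unequal by limma's test of their difference on the log2 scale, 7 lower and 4 higher at 24 h, while 22.2% of all probes were lower and 21.1% higher, so these counts are near or below the background. The effect was lower at 24 h in Tpm2 (-1.29), Tcap (-0.87), Actn2 (-0.85), Ttn (-0.81), Myh2 (-0.75), Mb (-0.48) and Ckmt2 (-0.47). It was higher at 24 h in Acta1 (0.95), Smpx (0.88), Myoz1 (0.78) and Des (0.78). The acetone arrays changed between the times in Ttn, Actn2, Acta1 and Myoz1, and these arrays enter the 4 differences.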

How the results depend on the processing

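The median log2 fold change of the 29 genes stayed between -0.79 and -0.64 at 4 h and between -0.84 and -0.64 at 24 h under all alternatives that gave one. By the 2-fold criterion in both pairs, 5 genes were lower at 4 h (Myh1, Myoz1, Pvalb, Smpx and Xirp2, with 5.05% of all probes lower), and 9 were lower and 0 higher at 24 h (12.3% of all probes lower). It also left 1 lower and 0 higher in the difference of effects, where 9.14% of all probes were lower. Between the acetone times it left 0 lower and 0 higher, where 2.9% of all probes were lower. An adjusted p of 0.01 left 2 higher in the difference, and 1 higher and 1 lower between the acetone times. A floor at the 25th percentile gave 1 gene, Tpm2, as higher at 4 h, and 1 higher and 1 lower between the acetone times. For the acetone times, 1 was higher with those groups fitted alone and 1 with the mean of all probes. Leaving out 1 array at a time gave 21 to 26 lower at 4 h, 19 to 22 lower and 1 higher at 24 h, 5 to 9 lower and 2 to 5 higher in the difference, and 0 to 4 lower and 0 to 3 higher between the acetone times. The count of 2 higher came without either acetone 4 h array or shikonin 24 h replicate 2. The difference called for Ckmt2 was lost without any array but shikonin 4 h replicate 1, that of Myoz1 without any but acetone 24 h replicate 2 and shikonin 24 h replicate 1, that of Mb without acetone 4 h replicate 2 (-0.43) or shikonin 24 h replicate 1 (-0.46), and that of Smpx without either acetone 4 h array or shikonin 24 h replicate 2 (0.83 to 0.90). Each call between the acetone times was lost without at least 1 acetone array, and without acetone 4 h replicate 1 or 2 or acetone 24 h replicate 1 the count fell to 0 or 1 in at least 1 direction. With the replicate number as a replicate block, 26 were lower at 4 h, 21 lower and 1 higher at 24 h, 6 lower and 4 higher in the difference, where Ckmt2 was lost, and 3 lower and 2 higher between the acetone times, where Ckm was lost. The numbers do not pair the arrays. Among these alternatives, the share of all probes called is given only for decreases by the 2-fold criterion. The other counts have no background beside them. The causes were not tested. Near 65000 the scanner compresses differences, which limits Mylpf, and below 203.4 values have no order.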

Other observations

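The genes outside the list whose course over the 8 arrays was closest to the mean course of the 29 skeletal muscle genes were named by the root mean square difference of centered log2 values, among 9958 genes. They were Mcpt4, a protease of connective tissue mast cells (0.0545), then Zc3h8, Usp13, Pbrm1, Slc35f5, Jsrp1, Zfp58, Hoxa5, Wwtr1 and Fam219b (0.0771). Of these 10, Jsrp1, a protein of the sarcoplasmic reticulum junction, is in a muscle list. Jsrp1 had 478 and 497 with shikonin at 4 h, against 735 and 748 with acetone, and 473 and 476 with shikonin at 24 h, against 823 and 814 with acetone. The place of Hoxa5 rests on the floor, to which all its shikonin arrays were raised. Before that it had 63 and 72 with shikonin at 4 h, against 314 and 365 with acetone. At 24 h it had 157 and 137 with shikonin, against 312 and 335 with acetone. The 29 skeletal muscle genes themselves had differences from their mean course of 0.060 to 0.509, with a median of 0.247, against a median of 0.495 over the other genes. The mean course was computed from these same 29 genes, which draws them closer to it than genes outside the list. The medians therefore cannot show whether the 29 genes moved together.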
